A study of Mus musculus with 6 samples.

Results

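The genes described here mark or specify primordial germ cells, or belong to the Dppa genes (developmental pluripotency associated): Prdm1, Tfap2c, Dmrt1, Dppa3, Nanos3, Kit, Dppa2, Dppa4 and Dppa5a. These 9 genes were chosen by symbol, with their knockdown and control signals on these same arrays already known, and every probe set annotated to a member's symbol alone was taken. Members were found at 12 of 45101 probe sets, and 8 of the 9 genes were measured, among 18193 genes with such a probe set. No such probe set was found for Nanos3, so its level was not analysed here. Because knockdown and control values entered the choice, differences of members from the control are given as a description with no p-value. The difference between the hairpins was no criterion of the choice, although the signals of both hairpins were known by then, and it was tested.

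Primordial germ cells are the embryonic founders of sperm and egg. In the mouse embryo they arise from epiblast cells that receive BMP signals, and Prdm1, Prdm14 and Tfap2c then shut down the somatic programme and restore expression of pluripotency genes. Embryonic stem cells share part of this gene set: Dppa3, Dppa5a, Dppa2 and Dppa4 are transcribed in naive pluripotent cells as well as in germ cells, and the level of Dppa3 varies from cell to cell in culture.

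Total RNA was measured on Affymetrix Mouse Genome 430 2.0 arrays. The cells were J1, a mouse embryonic stem cell line labelled wild type, grown on gelatin in 15% serum with 1000 U/ml leukemia inhibitory factor. All 3 groups were infected with pLKO.1 lentivirus carrying a short hairpin RNA, were selected with 1.5 ug/ml puromycin for 2 days from day 1 after infection, and were collected after replating and 4 more days of culture. The control group carried the non-targeting hairpin shNT, and the knockdown groups carried shJmjd1c#3 (sh3) or shJmjd1c#4 (sh4), both directed against Jmjd1c, a JmjC-domain protein of the histone demethylase family. The labels name the 2 arrays of a group biological replicates, and these numbers limit the precision. In RNA from whole cultures, fewer cells of a type and less RNA per cell cannot be told apart.

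Signals are on a linear scale on which the mean of the middle 96% of probe sets was 500.003 on every array, and the median signal of an array was 69.3 to 81.3. Differences are in log2(signal + 16), with the standard error (SE) from limma, and a gene is called when its adjusted p over the 12684 genes tested was below 0.05. The targeted gene did not give a uniform check of the labels. At the brightest Jmjd1c probe set the signal was 6060.3 and 5516 in shNT, 4541 and 4984 in sh3, and 3274 and 4215 in sh4, a difference of -0.46 (SE 0.13; limma adjusted p = 0.358 over all probe sets). At 2 dimmer probe sets the knockdown arrays were higher, by 0.90 (SE 0.15, adjusted p = 0.117, and 0.0127 with the replicate number as a block) and by 0.73 (SE 0.25, adjusted p = 0.439), so the groups are called by their labels. All 10 embryonic stem cell markers passed the filter on dim genes, and their summed signal was 87770 to 97386 in shNT, 77580 to 79258 in sh3 and 80235 to 81419 in sh4. Of these markers 0 were called, and 3 were lower with the block (Nanog, Sox2 and Esrrb). Over all genes tested, 2.26% were called lower and 3.33% higher with the block.

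The 8 measured genes were not lower by a common amount. Prdm1, Dppa3 and Dmrt1 stood at 39.7% to 53.2% of the control signal, Tfap2c, Dppa5a and Kit at 73.3% to 81.2%, and Dppa2 and Dppa4 at 95.9% and 98.6%. All 8 were tested, since each had a probe set above the filter. The log2 difference was negative for 8 of 8, beside 48.3% of all genes tested. The median was -0.39, beside 0.011 over all genes tested. These signs and this median rest on the values that entered the choice, so they are a description only. Of the 8, the 3 called lower were Prdm1, Dmrt1 and Dppa3. The background was 0.166% of all genes called lower and 0.56% called higher; the calls rest on the values that entered the choice, so they are no independent test and nothing is read from their count. None of these 3 was called without the intensity trend. With the replicate number as a block, 5 of the 8 were called, Tfap2c and Dppa5a being added, beside a background of 2.26% lower and 3.33% higher. All 4 knockdown arrays lay below both controls for 4 of the 8 genes (Prdm1, Dppa3, Dmrt1 and Dppa2); 9.54% of all genes did so, and 11.2% lay above both. When every probe set was tested with no filter, 0 of the 12 member probe sets were called, with a background of 0.00444% called lower.

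**Figure D1:**
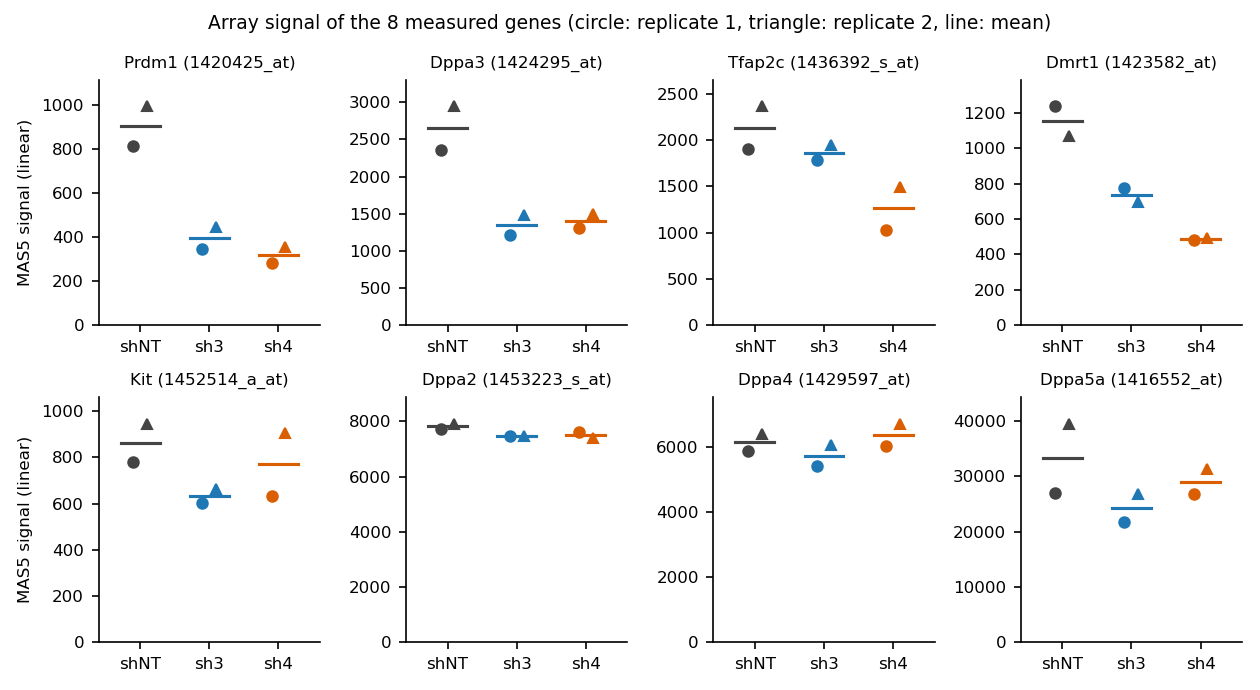
Array signal (linear scale, each axis from 0) of the brightest probe set of the 8 measured genes in shNT, sh3 and sh4; circles are replicate 1, triangles replicate 2, and lines group means. Prdm1, Dppa3 and Dmrt1 were lower in all 4 knockdown arrays, whereas the knockdown arrays overlapped the controls for Dppa4, Dppa5a, Kit and Tfap2c.

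Prdm1 (also called Blimp1), the zinc finger repressor that starts germ cell specification and drives plasma cell differentiation, had the lowest level relative to control. Its promoter is shown because Prdm1 had the largest difference among the members; capitals mark CpG dinucleotides, of which these 250 bases upstream of the annotated start hold 15 (RefSeq, GRCm38.p6, chr10:44458749-44458998, minus strand).
Prdm1 upstream: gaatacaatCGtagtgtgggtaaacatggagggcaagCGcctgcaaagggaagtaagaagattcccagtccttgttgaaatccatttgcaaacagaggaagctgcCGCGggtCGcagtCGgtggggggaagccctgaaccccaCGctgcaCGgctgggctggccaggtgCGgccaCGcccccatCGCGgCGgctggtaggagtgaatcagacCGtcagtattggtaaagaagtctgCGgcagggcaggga
Extended by the first 50 bases of the transcript, the window held 20 CpG, more than 73.5% of the 32851 promoter windows of the same length, whose median was 7. The RefSeq table gave a window for 3 members, Prdm1, Kit and Nanos3. Both strands were searched for 5 motifs: the PRDM1 core GAAAGNGAA (in 2.715% of all windows), the AP-2 motif GCCNNNGGC (16.59%), the E-box CACGTG (7.15%), the octamer ATGCAAAT (1.735%) and the GC box GGGCGG (35.658%). None of the 5 was in the Prdm1 window, and the Kit window held 1 AP-2 motif and 1 GC box, as did the Nanos3 window, where they overlapped. These are descriptions of letters in the windows, and no binding was measured.

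Prdm1, measured at a single probe set, gave signals of 814 and 996 in shNT, 349 and 448 in sh3, and 282 and 358 in sh4. The lower control stood above the highest knockdown array. The group means were 905 ± 129 (SD, n = 2) in shNT, 398 ± 70.1 in sh3 and 320.0 ± 53.4 in sh4. Thus sh3 was at 44.0% and sh4 at 35.4% of control. The log2 difference was -1.16 (SE 0.21) for sh3, -1.46 (SE 0.21) for sh4 and -1.31 (SE 0.18) for the knockdown mean. With any single array left out, the knockdown difference stayed between -1.45 and -1.16, but the call held in 2 of 6 cases, being lost without shNT replicate 2, either sh3 array or sh4 replicate 1. Both hairpin comparisons share the same 2 control arrays.

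Tfap2c, the AP-2 gamma transcription factor that acts with Prdm1 and Prdm14 in germ cell specification and is also known in trophectoderm, had 3 probe sets. The brightest gave 1899.6 and 2364 in shNT, 1779 and 1949 in sh3, and 1029.5 and 1495 in sh4. Here sh3 overlapped the control and both sh4 arrays were lower, at 87.4% and 59.2% of the control mean. The knockdown difference was -0.47 (SE 0.16), with -0.19 (SE 0.19) for sh3 and -0.76 (SE 0.19) for sh4, and leaving out single arrays gave -0.63 to -0.32. The other two probe sets put sh3 below the control as well. The first of these gave 875 and 865 in shNT, 655 and 724 in sh3, and 540.4 and 731 in sh4, a knockdown difference of -0.39 (SE 0.15). The dimmest gave 690.1 and 765 in shNT, 477 and 504 in sh3, and 353 and 538 in sh4, a knockdown difference of -0.63 (SE 0.18). At these dimmer probe sets all 4 knockdown arrays were below both controls. Their sh3 differences were -0.33 (SE 0.17) and -0.55 (SE 0.21) in that order. All 3 probe sets thus gave a negative sh3 difference, and they differed in whether sh3 arrays overlapped the control. Of trophectoderm markers, 8 of 10 passed the filter, and 3 were called higher with the block (Cdx2, Krt8 and Krt18). Over all genes tested, 3.33% were called higher with the block and 0.56% without it. The summed signal of these markers was 4001 to 7238 in shNT, 6133 to 11855 in sh3 and 5508 to 7432 in sh4. Cdx2 was also called higher without the block (limma adjusted p = 0.0361), at 18.8 and 2.43 in shNT, 90.6 and 209 in sh3, and 104 and 120 in sh4, and no fold is given because both controls lay at background. Elf5 and Gata3 were below the filter, and the part of these cells in the Tfap2c values was not tested.

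Dmrt1, a DM-domain transcription factor that controls germ cell proliferation, meiotic entry and maintenance of the male gonad, gave lower signals under sh4 than under sh3. Its probe set gave 1237 and 1067 in shNT, 777 and 698 in sh3, and 481 and 493 in sh4. The 3 groups did not overlap, with the control highest and sh4 lowest. Over all genes tested, both sh4 arrays lay below both sh3 arrays for 18.2%. The direct test between the hairpins, given below, did not pass for Dmrt1. The means were 1152 ± 121 (SD, n = 2), 738 ± 55.8 and 487 ± 8.51, so that sh3 was at 64.1% and sh4 at 42.3% of control. The difference was -0.63 (SE 0.15) for sh3, -1.21 (SE 0.15) for sh4 and -0.92 (SE 0.13) for the knockdown mean. Leaving out single arrays gave -1.03 to -0.81, and the call was lost in 6 of 6 cases, as it was when all 4 knockdown arrays were fitted as 1 group.

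Dppa3 (Stella, PGC7), which shields DNA methylation in the early embryo and is a classic marker of new germ cells, was at about the same level under both hairpins. Its probe set gave 2353 and 2946 in shNT, 1209 and 1477 in sh3, and 1311 and 1492 in sh4. All knockdown arrays lay below the lower control, and the hairpin groups overlapped. The means were 2649 ± 419 (SD, n = 2), 1343 ± 190.0 and 1401 ± 128, which are 50.7% of control for sh3 and 52.9% for sh4. The difference was -0.97 (SE 0.16) for sh3, -0.91 (SE 0.16) for sh4 and -0.94 (SE 0.14) for the knockdown mean. It ranged from -1.10 to -0.78 when single arrays were left out, and the call held only without shNT replicate 1.

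**Figure D2:**
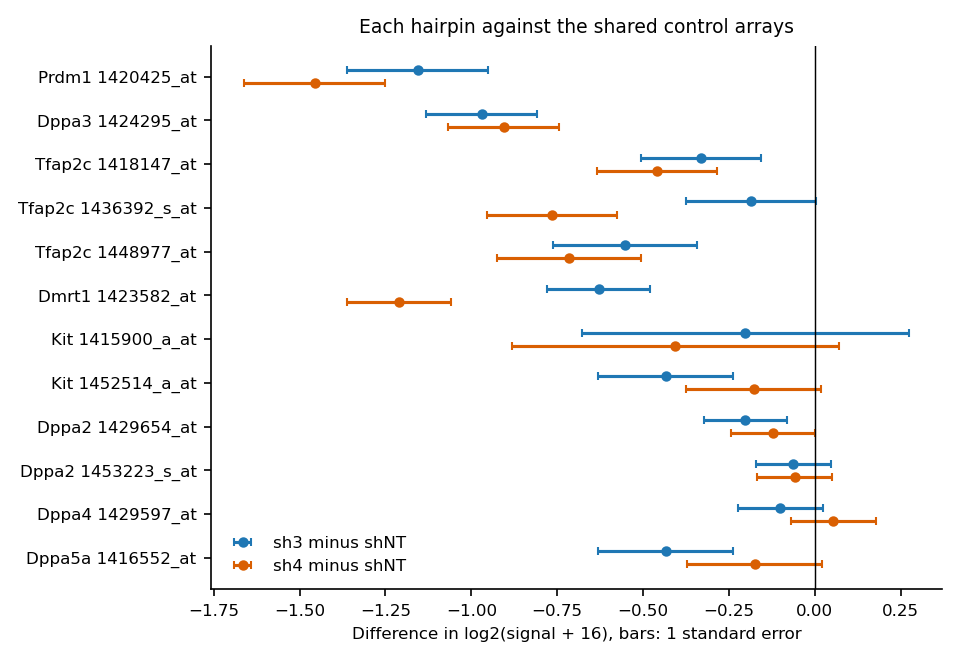
Difference of each hairpin from shNT in log2(signal + 16) for the 12 member probe sets, from the fit of every probe set; bars are 1 SE from limma, and both hairpins share the control arrays. Prdm1 was at -1.16 under sh3 and -1.46 under sh4, and Dppa4 lay near 0.

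Kit, the receptor tyrosine kinase for Kit ligand that supports survival and migration of germ cells, blood cells and melanocytes, had knockdown arrays that overlapped the control. Its brighter probe set gave 782 and 947 in shNT, 604 and 663 in sh3, and 634 and 908 in sh4. Both sh3 arrays and sh4 replicate 1 were below the controls, and sh4 replicate 2 lay between them. The knockdown mean was at 81.2% of control, a difference of -0.31 (SE 0.17), with 73.3% for sh3 and 89.2% for sh4. It ranged from -0.44 to -0.17 when single arrays were left out, being -0.17 without shNT replicate 2 and -0.18 without sh4 replicate 1. The other probe set, below the filter, gave 22.5 and 66.0 in shNT, 27.8 and 38.5 in sh3, and 25.6 and 27.1 in sh4. The tryptophan control probe sets, for a bacterial RNA absent from the cells, read up to 27.8 on these arrays, so this probe set is near background and carries little information. Among blood and mast cell markers, 5 of 8 passed the filter with 0 called, also with the block, and Ptprc, Cpa3 and Fcer1a were below it. Their summed signal was 572 to 587 in shNT, 493 to 632 in sh3 and 440 to 575 in sh4, and their part in the Kit values was not tested.

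Dppa2 and Dppa4, SAP-domain partners that bind together at developmental and 2-cell-stage gene promoters, were abundant and close to control. The brighter Dppa2 probe set gave 7704 and 7917 in shNT, 7476 and 7477 in sh3, and 7617 and 7378 in sh4. All 4 knockdown arrays were below both controls, by a small margin, at 95.9% of control and a difference of -0.061 (SE 0.087). The dimmer Dppa2 probe set gave 4924 and 5693 in shNT, 4445 and 4759.9 in sh3, and 4944 and 4786 in sh4, or 89.2% of control and -0.16 (SE 0.11), with 1 knockdown array above the lower control. Dppa4 gave 5883 and 6382 in shNT, 5402 and 6050.1 in sh3, and 6027 and 6715 in sh4. The Dppa4 groups overlapped, with sh4 replicate 2 the highest array. Its difference was -0.023 (SE 0.10), with a 95% interval of -0.25 to 0.21. The values are compatible with any shift within that interval, which is no limit of detection.

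Dppa5a (Esg1), a KH-domain RNA-binding protein of pluripotent cells, had the brightest of the member probe sets. Its probe set gave 27046 and 39579 in shNT, 21836 and 26871 in sh3, and 26829.8 and 31317 in sh4. Control replicate 1 lay among the knockdown arrays and control replicate 2 above all of them. The knockdown mean was at 80.2% of control, a difference of -0.30 (SE 0.16). This value depended on which control was used, being -0.58 without shNT replicate 1 and -0.03 without shNT replicate 2. Within each replicate number, however, both knockdown arrays lay below the control array of that number.

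The hairpins were then compared directly, in 8 tests adjusted over all genes. The control arrays do not enter the difference itself. They are part of the fit that gave its SE, interval and p. No member passed, and 0% of all genes did, with 774 genes at an unadjusted p below 0.05 in limma; with the replicate block 0.418% of genes passed and 0 of the 8 members did. Both sh4 arrays were below both sh3 arrays for 2 of the 8 members and above for 0, beside 18.2% below and 20.3% above over all genes. For Dmrt1, sh4 was at 66.1% of sh3, a difference of -0.58 (SE 0.15, 95% interval -0.93 to -0.23, limma unadjusted p = 0.0044, adjusted p = 0.568). The adjusted p for Dmrt1 was 0.101 with the block. For Tfap2c at its brightest probe set the difference was -0.58 (SE 0.19, interval -1.01 to -0.15, adjusted p = 0.682, or 0.0693 with the block). It was -0.31 without sh4 replicate 1, and -0.85 to -0.31 over the arrays left out in turn. The dimmer Tfap2c probe sets gave smaller differences, of -0.13 (interval -0.52 to 0.27) and -0.16 (interval -0.64 to 0.31). The brightest probe set is of a type that may cross-hybridize. Without probe sets of that type the Tfap2c difference was -0.13 (limma adjusted p = 0.944). For Prdm1 the difference was -0.30 (SE 0.21, interval -0.77 to 0.17, adjusted p = 0.868). It moved to -0.47 without sh3 replicate 1, -0.13 without sh3 replicate 2, -0.14 without sh4 replicate 1 and -0.46 without sh4 replicate 2.

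The remaining members gave intervals that include 0 in this comparison. The differences were 0.065 for Dppa3 (interval -0.30 to 0.43, limma adjusted p = 0.973), 0.26 for Kit (-0.19 to 0.70, adjusted p = 0.879) and 0.26 for Dppa5a (-0.16 to 0.68, adjusted p = 0.868). They were 0.15 for Dppa4 (-0.11 to 0.42, adjusted p = 0.877) and 0.0038 for Dppa2 (-0.22 to 0.23, adjusted p = 0.995). These widths do not show that the hairpins acted alike. With single arrays left out the difference ranged from 0.0034 (without sh4 replicate 2) to 0.51 (without sh4 replicate 1) for Kit. The range was 0.11 to 0.41 for Dppa5a (without sh3 replicate 1 and 2) and 0.072 to 0.24 for Dppa4 (likewise). The sign for Dppa2 and for Dppa3 turned under median centring of the arrays. Other signals had the same order as Dmrt1 and Tfap2c: both sh4 arrays were below both sh3 arrays at the brightest Jmjd1c probe set and at the 18S ribosomal RNA 3' control, which read 8140 and 6875 in shNT, 6177 and 5333 in sh3, and 3712 and 5013 in sh4. Their part in the result was not tested.

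**Figure D3:**
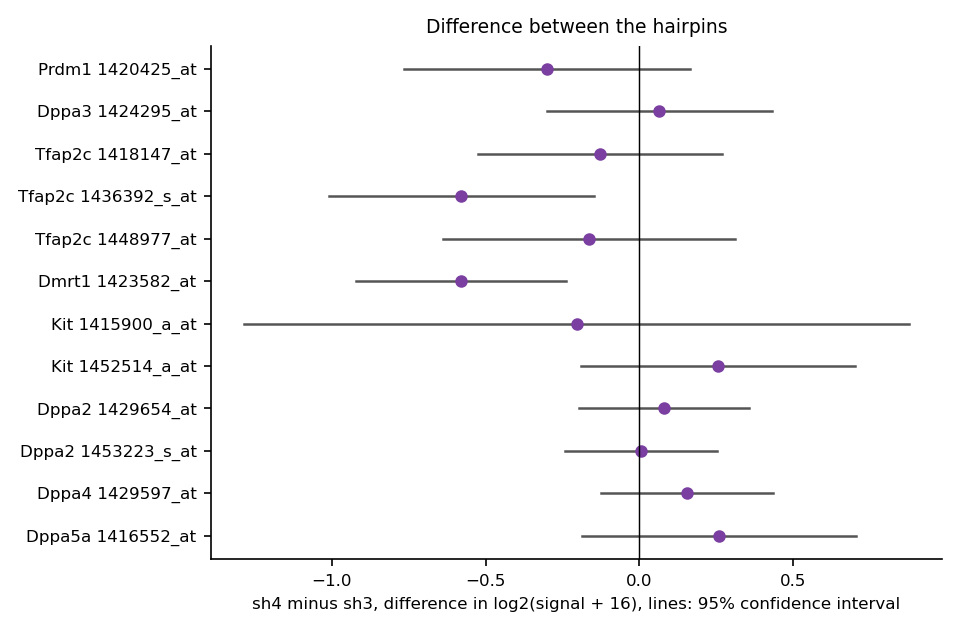
Difference sh4 minus sh3 in log2(signal + 16) for the 12 member probe sets, with the 95% confidence interval from the limma fit of every probe set. Dmrt1 and the brightest Tfap2c probe set lay at -0.58, and no probe set passed the adjusted threshold.

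Each hairpin against the control gave fewer calls than their mean. These values also entered the choice, so the counts are a description. With sh3, 0 of the 8 members were called, beside 0.00788% of all genes called lower and 1235 genes with an unadjusted p below 0.05 in limma. With the block 4 were called for sh3 (Prdm1, Dppa3, Dmrt1 and Dppa5a), beside 1.4% of all genes called lower. With sh4, 2 members were called (Prdm1 and Dmrt1), beside 0.0788% of all genes called lower. With the block 4 were called for sh4 (also Dppa3 and Tfap2c), beside 2.22% of all genes called lower. Dppa4 was the member with a positive sh4 difference.

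The surrounding programme was read from 6 lists of genes that are no members. These lists were chosen with earlier results of these data known. Calls and adjusted p-values within them are therefore descriptions and no independent test, as are those of the markers and neighbours below. Of 28 other genes of primordial germ cell specification, 26 were tested, 0 were called, and 13 differences were positive and 13 negative, with a median of 0.010. With the block, under which 2.26% of all genes were called lower and 3.33% higher, a background that holds for each list below, 7 were called lower (Ifitm1, Ifitm3, Nanog, Sox2, Klf2, Esrrb and Nr5a2, most of them pluripotency factors) and 1 higher (Otx2, an epiblast factor that opposes germ cell fate). Ifitm3 (Fragilis), a membrane protein of new germ cells, gave 7835 and 9371 in shNT, 4751 and 4815 in sh3, and 7827 and 6377 in sh4, a difference of -0.56 (SE 0.12, limma adjusted p = 0.101, 0.00803 with the block). It was lowest under sh3. Klf2 (-0.68, SE 0.19, adjusted p = 0.198) and Sox2 (-0.33, SE 0.091, adjusted p = 0.191) did not pass without the block either.

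Of 20 later germ cell genes, 17 were tested and 0 were called, with 13 of 17 differences negative and a median of -0.34; with the block 2 passed as lower (Hormad1 and Sohlh2). Sohlh2, a helix-loop-helix factor of germ cell differentiation, gave 596 and 431 in shNT, 313 and 299.7 in sh3, and 336 and 368 in sh4 (-0.60, SE 0.18, limma adjusted p = 0.216, 0.0488 with the block). Tdrd12, a Tudor protein of the piRNA pathway, differed by -0.40 (SE 0.12, adjusted p = 0.217). Sycp3, a protein of the meiotic chromosome axis, differed by -0.36 (SE 0.13, adjusted p = 0.288).

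Of 15 genes listed as needing Dppa2 and Dppa4 or marking the 2-cell-like state, 5 were tested, 0 were called, and the median was -0.37. Duxf3, Tcstv1 and Tcstv3 were below the filter. Zscan4c, Zscan4d, Zscan4f, Tdpoz3, Tdpoz4, Usp17lc and Tmem92 had no single-symbol probe set. The median thus covers the 5 tested genes only, and the level of the 2-cell-like state was not measured. Tcl1, a coactivator of Akt kinase, gave 1593 and 2503 in shNT, 766 and 1155 in sh3, and 511 and 1160 in sh4 (-1.21, SE 0.32, limma adjusted p = 0.164, 0.000383 with the block). All 4 knockdown arrays were below both controls for Tcl1, with a wide spread within each group. Zfp809, a zinc finger silencer of retroviruses, differed by -0.44 (SE 0.13, adjusted p = 0.222). Zfp352, at signals of 26.4 to 89.1, differed by -0.37 (SE 0.33, adjusted p = 0.732).

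Of 14 genes held low in early germ cells where Prdm1 acts (somatic Hox genes, DNA methyltransferases and others), 9 were tested, 0 were called, 7 of 9 differences were positive and the median was 0.24. With the block 3 passed as higher: Hoxb2, Dnmt3a and Dnmt3b. Hoxb2 gave 33.1 and 4.24 in shNT, 139 and 40.5 in sh3, and 244 and 211 in sh4 (limma adjusted p = 0.0982, 0.00237 with the block), and no fold is given because the controls lay near or below the background level. Dnmt3b, a de novo DNA methyltransferase, gave 14907 and 6387 in shNT, 22139 and 14588 in sh3, and 21680 and 11952 in sh4 (0.80, SE 0.34, adjusted p = 0.388, 0.00104 with the block). Replicate 1 was the higher array of every group for Dnmt3b, and its groups overlapped. Hoxb3 gave 8.79 and 41.6 in shNT, 63.97 and 46.3 in sh3, and 52.2 and 83.0 in sh4 (adjusted p = 0.365), again with a control at background.

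Of 26 genes of Kit signalling, 19 were tested, 0 were called, and 11 differences were negative and 8 positive, with a median of -0.011. Mitf, a transcription factor of melanocytes and mast cells downstream of Kit, gave 776 and 943 in shNT, 426 and 441 in sh3, and 419 and 655 in sh4 (-0.82, SE 0.19, limma adjusted p = 0.128, 0.00712 with the block). It was the gene of this list that passed with the block. The adaptors Shc1 (0.34, SE 0.15, adjusted p = 0.418) and Gab2 (0.39, SE 0.26, adjusted p = 0.596) were among the positive differences.

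Of 15 Prdm1 partners and targets known from plasma cells, 12 were tested, 0 were called, 6 differences were negative and 6 positive, and the median was 0.055. Id3, an inhibitor of helix-loop-helix factors and a Prdm1 target in B cells, gave 425 and 788 in shNT, 849 and 1190.3 in sh3, and 992 and 1089 in sh4 (0.80, SE 0.24, limma adjusted p = 0.214, 0.0083 with the block). The 4 knockdown arrays lay above both controls for Id3. The corepressor Tle3 differed by -0.34 (SE 0.11, adjusted p = 0.240) and Xbp1, a secretory pathway factor, by -0.22 (SE 0.10, adjusted p = 0.440).

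**Figure D4:**
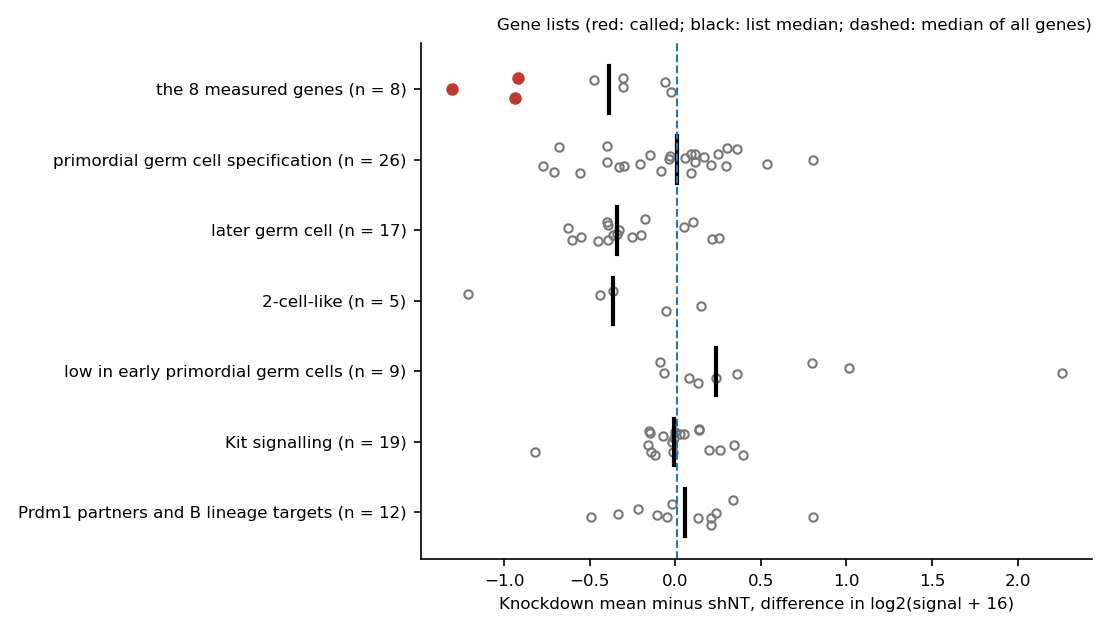
Knockdown mean minus shNT in log2(signal + 16) for the 8 measured genes and the tested genes of the 6 lists; each circle is a gene, red marks a call without the block, black bars are medians and the dashed line is the median of all genes. The 3 called members lay at or below -0.92, and no gene of the other lists was called. The rightmost circle, Hoxb2, has controls near or below background, so its position is no measured fold.

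Markers of other cell types were taken beside these values. Over all genes tested, 0.56% were called higher without the block and 3.33% with it. Of 10 fibroblast markers, 7 were tested, with a median of 0.87. This median is the value of Col1a1, whose controls read 5.88 and 73.2, so it is no measured fold. Col3a1 was called higher (limma adjusted p = 0.0336), at 25.6 and 37.6 in shNT, near background, and 109 to 254 in the knockdown arrays. With the block Dcn was called higher as well, with controls of 10.9 and 11.7, below the background level. The summed signal of the fibroblast markers was 659 to 669.9 in shNT, 991 to 1033 in sh3 and 1199.9 to 1233 in sh4. Lum, Postn and Twist2 were below the filter. Of 11 primitive or visceral endoderm markers, a tissue where Prdm1 is also known, 8 were tested, 0 were called (2 higher with the block, Dab2 and Cubn) and the median was 0.58; the summed signal was 703 to 916 in shNT, 835 to 971 in sh3 and 1565 to 2054 in sh4, and Foxa2, Afp and Ttr were below the filter. The 18S 3' control was at 67.4% of the control group in the mean of the knockdown arrays. The part of these signals in the members' values was not tested.

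Chromosomal neighbours, chosen after the values were seen, gave no common pattern (RefSeq order, GRCm38.p6). Dppa2 and Dppa4 are each other's nearest protein-coding neighbours, and Morc1, on the other side of Dppa2, differed by -0.51 (SE 0.16, limma adjusted p = 0.243, 0.0279 with the block). Dppa3 lies between Gdf3 (0.0046, SE 0.11, adjusted p = 0.991) and Nanog (-0.40, SE 0.18, adjusted p = 0.425, 0.0151 with the block). Prdm1 lies between Atg5 (-0.058, SE 0.14) and Prep (0.17, SE 0.13). Ooep, beside Dppa5a, differed by -0.28 (SE 0.18). Kit lies between Pdgfra and Kdr (0.091, SE 0.29). Pdgfra differed by 0.87 (SE 0.33, limma adjusted p = 0.317), with a control array of 23.8 at background. Dmrt1 lies between Kank1 (0.091, SE 0.25) and Dmrt3 (0.48, SE 0.40). Tfap2c lies between Fam209 (-0.047, SE 0.33) and Bmp7 (-0.16, SE 0.24). The other neighbours of Dppa5a and Dppa4, Gsta2 and Gm52257, were not tested.

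Likeness of pattern over the 6 arrays was ranked among the genes tested, leaving out members and genes with RIKEN or Gm symbols. Most like Prdm1 were Pald1 (r = 0.995), Plxdc1 (r = 0.994) and Cep44 (r = 0.988). Their differences were smaller, at -0.18, -0.52 and -0.22. Most like Dppa3 were Atp6v1c1 (r = 0.997), Reps2 (r = 0.994) and Cebpzos (r = 0.993), with differences of -0.26, -0.49 and -0.41. The 6 arrays share 3 groups, and these r values, picked as the highest of all genes ranked, are a description over them.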

How the data were processed

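Per the labels, total RNA (6 ug) of 6 cell samples, 2 in each of 3 groups, was hybridized to 1 array each. The deposited values are linear signal intensity; the submitters' processing notes name MAS5, with its version not given in the sources used here. They were used as deposited. Of 45101 probe sets, 64 were controls, 34945 had a single gene symbol, 932 several and 9160 none; 34741 were found in the RefSeq gene table through their Entrez ID, which altered 0 symbols.

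Members and lists were chosen with earlier results of these data known. Values were log2(signal + 16). The brightest single-symbol probe set per gene was kept; a gene was tested if its mean reached the 40th percentile of non-control probe sets (signal 40.1). A limma model (version 3.58.1, R 4.3.3) with 3 group means was used with intensity trend (residual df 3, prior df 5.96), 2-sided tests and Benjamini-Hochberg adjustment at 0.05; a second fit took all 45037 non-control probe sets with no filter. The main fit was run on simulated data with independent noise on each array. The shared deviations described below were not simulated, and the block was not run on simulated data. Named genes are all members and, per list, those called plus up to 3 others with the smallest p; other names were chosen after their values were seen.

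The replicate numbers come from the titles, and no source gives a common day. Across genes, same-numbered arrays deviated together from group means, with correlations of 0.302 (shNT and sh3), 0.223 (shNT and sh4) and 0.300 (sh3 and sh4). Pairing by number was therefore fitted as an alternative, the block, which rests on these arrays alone. The main fit ignores pairing, and its calls, SE and intervals are unpaired. The block leaves residual df 2 and prior df 9.34. Alternatives were 2 other pseudocounts (1 and 64), filters, probe set rules, scalings, no trend, the block, the knockdown arrays as 1 group, and each array left out.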

Additional observations from a re-analysis of the deposited data

How the results depend on the processing

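Over all genes tested, the knockdown mean gave 92 calls. The count was 36 with no filter, 34 with the mean of probe sets, 50 without probe sets that may cross-hybridize, 0 without the intensity trend (1499 genes at an unadjusted p below 0.05 in limma), 710 with the replicate block, and 4 to 48 with each array left out. For sh3 the 9 calls became 0 with pseudocount 1, no filter, the 60th percentile filter, the mean of probe sets or no trend (1022 to 1543 genes at an unadjusted p below 0.05 in limma), 435 with the block and 0 to 1 with an array left out. For sh4 the 46 calls became 21 with no filter, 27 with the mean of probe sets, 22 without cross-hybridizing probe sets, 6 without trend, 622 with the block and 3 to 40 with an array left out. Median centring of the arrays gave 33 higher and 22 lower calls for sh4, beside 36 and 10. Between hairpins 0 calls became 53 with the block. In the fit of every probe set the 19 knockdown calls became 32 with pseudocount 1, 1 with pseudocount 64 and 466 with the block, and the between-hairpin count became 1 with the block. The causes of these changes were not tested.

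The knockdown difference kept its sign in every alternative for Prdm1, Dppa3, Dmrt1, Tfap2c, Kit, Dppa5a and Dppa2. These were 17 alternatives, but 16 for Kit, which had no probe set left without those that may cross-hybridize. Prdm1, Dppa3 and Dmrt1 also lost their calls without the trend. Dppa4 changed sign, at -0.081 to 0.036 with single arrays left out. Between hairpins, Dppa2 was -0.040 with quantile normalization, -0.065 with median centring and -0.019 to 0.027 with an array left out, and Dppa3 was -0.0035 with median centring and -0.078 to 0.21 with an array left out. Signals at or below 27.8, the highest of the tryptophan control probe sets, limit what dim probe sets show.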
